A study of Homo sapiens with 12 samples.

Results

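The immunoglobulin gene segments are the V, D and J genes of the kappa light chain locus on chromosome 2, the heavy chain locus on chromosome 14 and the lambda light chain locus on chromosome 22. They were taken from the RefSeq gene table as all symbols that start with IGH, IGK or IGL, go on with V, D or J and then with a digit, on these 3 chromosomes. The rule found 281 of the 59792 genes of the table. The lambda V segment IGLV5-39 is listed at 29116 to 29715 among genes of a separate scaffold and has no position on the chromosome itself, so 280 segments were placed, 81 in the kappa locus, 123 in the heavy locus, 63 in the lambda locus and 13 orphons, copies of kappa V segments that lie outside the loci.

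Each antibody chain gene is put together in developing B cells, when the RAG1 and RAG2 recombinase joins 1 V segment to 1 J segment, with a D segment between them in the heavy chain. In cells outside the lymphoid lineage the segments stay apart, in the order of the germline. Many V segments are pseudogenes, and the kappa V segments of the human genome lie in a proximal and a distal cluster, which are largely duplicates of each other. In lymphoid progenitors immunoglobulin loci are known for moving between the nuclear periphery and the interior, and the nuclear lamina lines that periphery.

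H9 is an established human embryonic stem cell line. Cells kept in mTeSR medium (primed) and in RSeT medium (naive), without further treatment, were mapped by pA-DamID, in which an antibody against lamin B1 (LMNB1) brings the Dam methylase to DNA at the lamina and the methylated fragments are sequenced. The 12 libraries fall into 4 groups of 3, LMNB1-dam and Dam-only libraries of each state, the latter made with Dam that is not tethered. The data used here are 1 list of lamina-associated domains (LADs) per state, 9178 LADs in naive and 5671 in primed, made of 10 kb windows and without score or read depth. No replicate can be told apart in them, so differences between the states are values of these lists, given with no test. Interval lists hold no expression, so the cell state could not be checked against marker genes.

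No immunoglobulin segment lay in a naive LAD, and 6 segments lay in a primed LAD, all of them kappa V segments. A segment counts as lying in a LAD here if LADs take up 50% or more of its length, and all 280 placed segments were covered at 0% in naive. Among all 58419 RefSeq genes on the primary sequence of the 22 autosomes and X, 28.7% lay in naive and 25.4% in primed LADs, against 0% and 2.14% of the segments. The 6 segments were all in primed LADs only, a class that held 2.01% of all genes, so the segments' share of 2.14% is near that background. The median covered share was 0% in both lists, over the segments as over all genes. The segments are neighbours in 3 loci and share windows, so these counts describe 3 loci rather than 280 separate placements. The segments are short, with lengths from 11 to 1927 bases, and the genes of 2 kb or shorter were in LADs at shares of 29.8% in naive and 26.9% in primed.

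**Figure D1:**
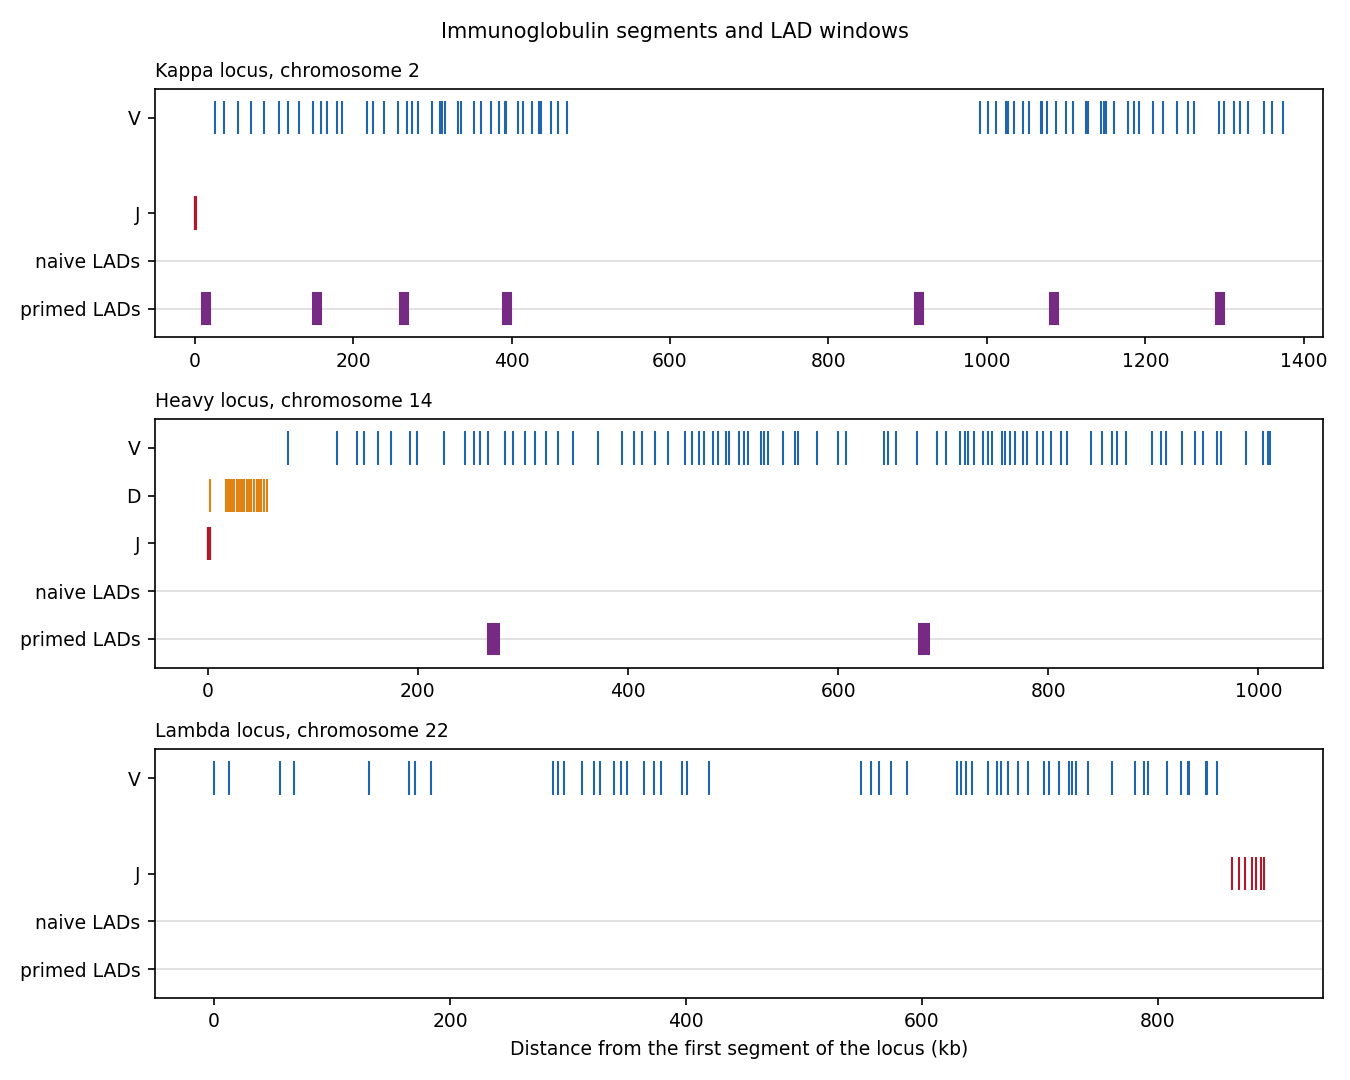
Positions of the V, D and J segments (vertical ticks) and of the LAD windows of the naive and primed lists (filled boxes, to scale) along the kappa, heavy and lambda loci, with the distance from the first segment of each locus in kb on the horizontal axis. The naive rows hold no window inside any locus, whereas the primed rows hold 7 windows in the kappa locus, 2 in the heavy locus and none in the lambda locus.

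The kappa locus was the only one of the 3 in which LAD windows reached segments. It runs over 1375 kb of chromosome 2 (hg38, 88860568 to 90235368), from the J segment IGKJ5 to the V segment IGKV3D-7. Naive LADs covered 0% of it. Primed LADs covered 5.09% in 7 pieces, each a single 10 kb window. By contrast, LADs covered 55.8% of chromosome 2 in naive and 50.5% in primed, and 34.7% and 29.6% of the genes of that chromosome lay in them. In primed LADs only were 6 of the 81 kappa segments (7.41%), beside 1.41% of the genes of chromosome 2 and 1.92% of its genes of 2 kb or shorter.

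The 5 kappa J segments, which supply the end of the variable domain, lie within 1.36 kb (88860568 to 88861923), inside 1 window. They were covered at 0% in both lists, with IGKJ5 first and IGKJ1 last. The nearest naive LAD was 1.05 Mb away from all of them. The nearest primed window, at 88870001 to 88880000, was 8.08 to 9.40 kb away. That window lies in the interval between IGKJ1 and IGKV4-1, the first V segment, and holds no segment itself. IGKV4-1 (88885572 to 88886153) starts 5.57 kb beyond it. IGKC, the constant gene of the kappa chain, was also outside LADs, 12.3 kb from this primed window and 1.05 Mb from the nearest naive LAD.

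Of the 76 kappa V segments, 40 lie in the proximal cluster (88885572 to 89330429, from IGKV4-1 to IGKV2-40) and 36 in the distal cluster (89851758 to 90235368, from IGKV2D-40 to IGKV3D-7). Primed LADs held 4 of the 40 and 2 of the 36. In the proximal cluster the primed list had 3 windows, which covered 6.74% of its bases. The window at 89010001 to 89020000 held IGKV1-9, a V segment covered at 96.0%, and the first bases of the pseudogene IGKV2-10, covered at 1.30%. The window at 89120001 to 89130000 held the pseudogene IGKV2-18, covered at 100%. The window at 89250001 to 89260000 held a pair of neighbouring pseudogenes, IGKV3-31 and IGKV1-32, both covered at 100%. These windows are 100 and 120 kb apart, and the V segments that lie wholly in between were covered at 0% in both lists.

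In the distal cluster the primed list had 2 windows, which covered 5.21% of its bases. The window at 89940001 to 89950000 held IGKV2D-29 (89947542 to 89948271), covered at 100%. The window at 90150001 to 90160000 held IGKV1D-13 (90154098 to 90154574), covered at 100%, and cut through IGKV1D-12, covered at 29.6%. A further primed window, at 89770001 to 89780000, lies in the 521 kb between the clusters, where the rule finds no segment. Over the whole locus, 5 of the 71 windows with a segment and 2 of the 67 windows without one were called in primed. Most windows without a segment lie between the clusters. The lists do not mark windows in which no read could be placed, so these counts do not compare the 2 kinds of window.

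The 6 segments in primed LADs were of both kinds. Of these, 3 (IGKV1-9, IGKV2D-29 and IGKV1D-13) are annotated as V segments and 3 (IGKV2-18, IGKV3-31 and IGKV1-32) as pseudogenes, out of 44 and 32 in the locus. By V family, 3 of 29 IGKV1, 2 of 27 IGKV2 and 1 of 14 IGKV3 members were in primed LADs. The IGKV4, IGKV5, IGKV6 and IGKV7 families, with 1, 1, 3 and 1 members, had none. With so few called members, no order of the families can be read.

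No pair of duplicated copies had both members in a LAD, beside primed calls for 4 of the 40 proximal and 2 of the 36 distal segments. With so few calls, the count of such pairs says little about the copies. The table holds 36 kappa segments whose symbol marks them as the distal copy, and 33 of these have a proximal mate in it. In naive, neither copy of any of the 33 pairs was in a LAD. In primed, neither copy was in a LAD in 28 pairs, 1 copy was in 5 pairs and both copies were in 0 pairs. The proximal copy was the one in a LAD in 3 pairs. IGKV2-18 was covered at 100% and its copy IGKV2D-18 at 0%, 96.6 kb from the nearest primed window. IGKV3-31 and IGKV1-32 were covered at 100%, and their copies IGKV3D-31 and IGKV1D-32 at 0%, 9.76 and 11.1 kb from a window. The distal copy was the one in 2 pairs. IGKV2D-29 was covered at 100% and its mate IGKV2-29, a pseudogene, at 0%, 15.1 kb away from a window. IGKV1D-13 was covered at 100% and IGKV1-13 at 0%, 26.0 kb away. IGKV1-9 has no distal copy in the table. The copies of these pairs are similar in sequence, and the treatment of reads that fit several places is not stated in the labels, so the call of a duplicated segment is uncertain in both directions.

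The distance from the kappa segments to the nearest LAD differed widely between the lists. In naive, the kappa V segments lay 1.08 to 1.68 Mb from the nearest LAD (median 1.42 Mb). In primed they lay 0 to 96.8 kb from it (median 34.5 kb). These distances describe 1 locus, which holds windows of the primed list and none of the naive list. All of the primed distances are to 1 of the 7 single windows. Counted to LADs of 50 kb or longer, both states were alike, with kappa segments 4.01 to 5.38 Mb away in naive and 4.06 to 5.43 Mb in primed.

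**Figure D2:**
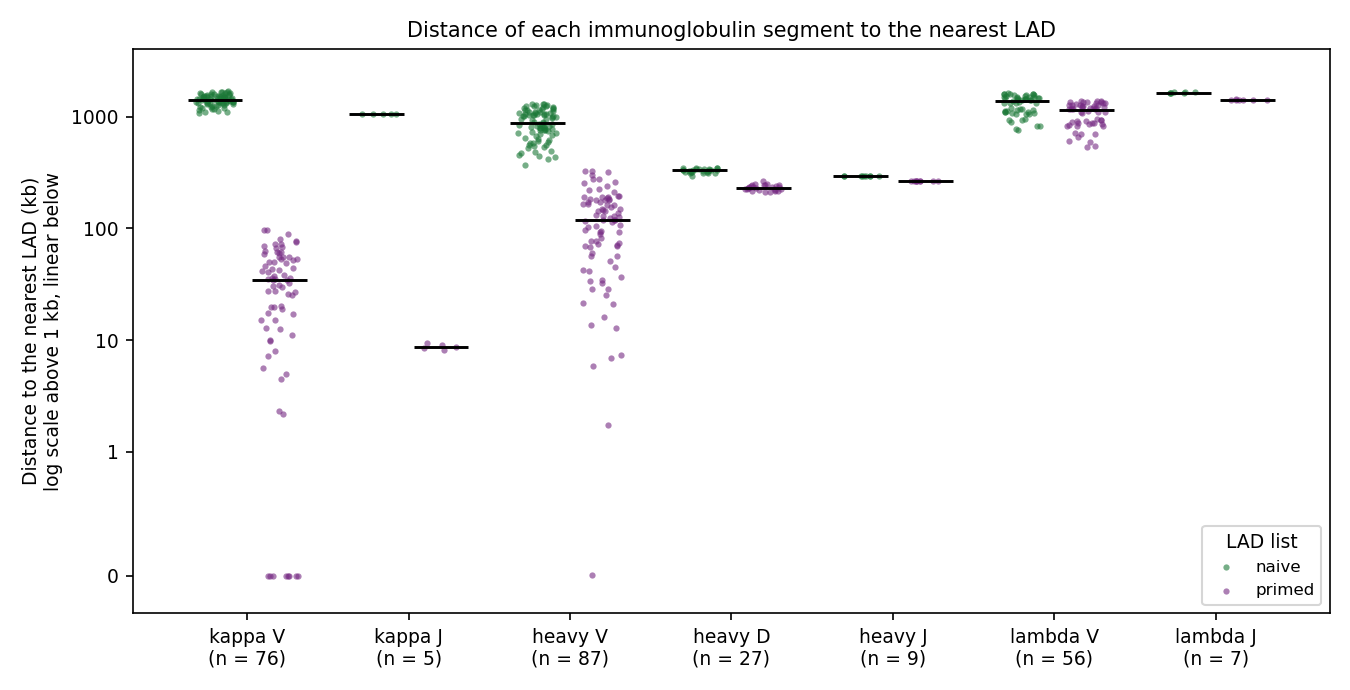
Distance in kb from each placed segment of the 3 loci to the nearest LAD of the naive (green) and primed (purple) list, by locus and part, on an axis that is logarithmic above 1 kb and linear below. Points are segments and black bars are medians. Kappa V and J segments sit above 1000 kb in naive and below 100 kb in primed, and heavy V segments are spread from 0.008 to 325 kb in primed, whereas lambda segments are above 500 kb in both.

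The heavy chain locus had no segment in a LAD of either state. It runs over 1012 kb near the end of chromosome 14 (105863196 to 106875017), and its last V segment is 4.83 kb from the end of the last annotated gene. Of the genes of chromosome 14, 16.8% lay in naive and 16.1% in primed LADs, against 0 of the 123 heavy chain segments. Naive LADs covered 0% of the locus, and primed LADs 1.98% in 2 pieces of 10 kb.

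The 9 heavy J segments, 3 of them pseudogenes, lie between IGHJ6 and IGHJ1P in 2.48 kb and were covered at 0% in both lists. They were 293 to 296 kb from the nearest naive LAD and 264 to 267 kb from the nearest primed LAD. The 27 D segments, which make up the middle of the antigen-binding loop of the heavy chain, run from IGHD7-27 to IGHD1-1 over 54.0 kb (105865551 to 105919518). They too were covered at 0%, 296 to 350 kb from a naive and 210 to 264 kb from a primed LAD. Both primed windows thus lie beyond the D and J part, and the naive window nearest to the locus lies on its other side, at 105560001 to 105570000. It is 16.9 kb from IGHA2, the constant gene of the IgA2 heavy chain.

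The 87 heavy V segments, 39 of them pseudogenes, run from IGHV6-1 to IGHV7-81 (105939754 to 106875017). The primed windows fell between V segments. The window at 106130001 to 106140000 starts 8 bases beyond IGHV3-13 (106129540 to 106129992) and ends 5.88 kb before IGHV1-14, which RefSeq lists as a pseudogene. The window at 106540001 to 106550000 starts 1.74 kb beyond IGHV3-48 and ends 6.94 kb before IGHV3-49. With windows of 10 kb, the call at IGHV3-13 is decided by the window edge. Heavy V segments lay 370 to 1305 kb from the nearest naive LAD (median 873 kb). Their distance to the nearest primed LAD was 0.008 to 325 kb (median 118 kb). The 3 duplicated heavy V segments of the table, IGHV3-64D, IGHV2-70D and IGHV1-69D, and their mates were all covered at 0% in both lists.

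The lambda locus was free of LADs in both states, like nearly all of its chromosome. It runs over 890 kb of chromosome 22 (22030994 to 22921435), from the V segment IGLV4-69 to the J segment IGLJ7. The 56 placed lambda V segments and the 7 J segments were all covered at 0%. Each list has 3 windows on the whole of chromosome 22, and LADs held 0.235% of its genes in naive and 0% in primed, so the absence of LADs at the locus is near the background of the chromosome. The V segments were 0.761 to 1.61 Mb from the nearest naive and 0.531 to 1.38 Mb from the nearest primed LAD. The J segments, from IGLJ1 to IGLJ7, were 1.62 to 1.65 Mb and 1.39 to 1.42 Mb away. Lambda V and J segments are thus the farthest from primed LADs of the 3 loci, on a chromosome with 3 primed windows in all. In naive, their distances overlapped those of the kappa and heavy segments.

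The 13 orphons were pseudogenes outside LADs in both lists. The 9 on chromosome 2 lie between 90315092 and 97386350. The one closest to a primed LAD was IGKV1OR2-1 at 31.8 kb, and the one closest to a naive LAD was IGKV2OR2-8 at 91.4 kb. Orphon IGKV1OR2-118, which lies just beyond the distal kappa cluster, was 155 kb from the nearest primed and 1214 kb from the nearest naive LAD. The 4 on chromosome 22 (16914064 to 16934653) were 4.33 to 4.34 Mb from a naive and 384 to 403 kb from a primed LAD.

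**Figure D3:**
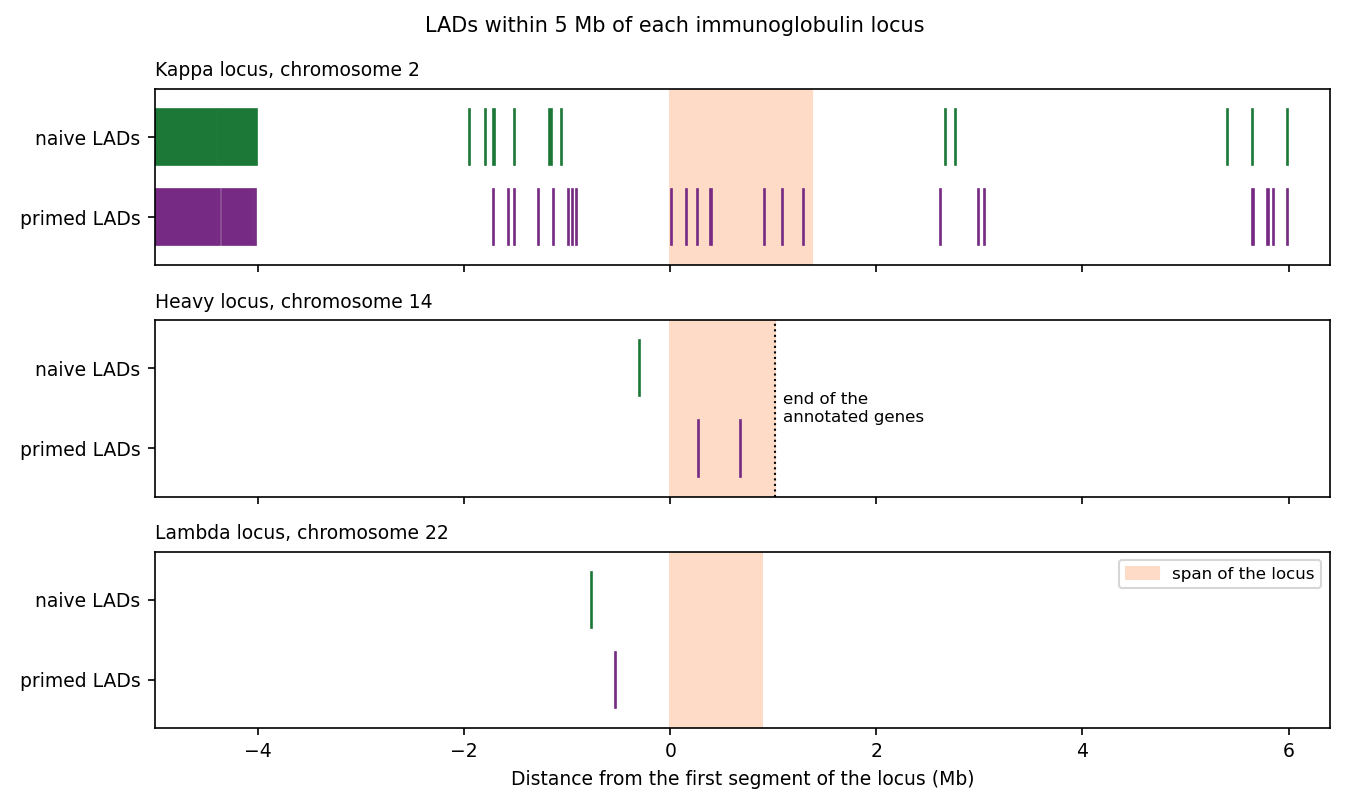
LADs of the naive (green) and primed (purple) list from 5 Mb before to 5 Mb after each locus, with the distance from the first segment in Mb on the horizontal axis and the span of the locus shaded. Outlines make single windows of 10 kb look wider than they are. The kappa panel shows the 7 primed windows inside the locus with empty stretches on both of its sides, and the heavy and lambda panels show few marks in either list.

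The nearest Mb around the loci held few LADs. In the 1 Mb before and after the kappa locus LADs covered 0% in naive, and 3% before and 0% after it in primed. Farther out, the 5 Mb before it held 8 naive LADs over 21.4% of the bases (longest 1380 kb) and 13 primed LADs over 20.2% (longest 640 kb). The 5 Mb after it held 5 naive LADs (1%) and 7 primed LADs (1.8%). On both sides of the kappa locus the nearest LADs outside it were single windows. In naive these stood 1.05 Mb before and 1.29 Mb after it, which leaves a stretch of 3.72 Mb without a LAD. In primed they stood 0.911 Mb before and 1.24 Mb after it, 3.53 Mb apart. Between them lay the 7 windows of the locus alone. This follows from the definition, since the stretch ends at the nearest LADs outside the locus. The nearest LAD of 50 kb or longer ended 4.01 Mb before the locus in naive and 4.06 Mb in primed, and the next one started 12.1 Mb and 12.3 Mb after it. The gap after the locus reaches across the centromere, and the lists do not mark the windows in which no read could be placed. At the heavy locus, the LAD before the first of the 2 primed windows lay 7630 kb away, and the naive window near IGHA2 was likewise alone, 6640 kb after the LAD before it. The nearest LAD of 50 kb or longer was 7.31 Mb before the locus in naive and 17.1 Mb in primed. The protein-coding genes next to the loci were covered at 0% in both lists. They were RPIA, a pentose phosphate pathway gene 110 kb before the kappa locus, LOC124905368 after it, TMEM121 before the heavy locus, and TOP3B, a topoisomerase gene, and RSPH14 on either side of the lambda locus.

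Other genes in and near the loci were outside LADs too, in the same stretches with few or no LAD windows. Their absence from LADs thus repeats that of the loci, beside 28.7% of all genes in naive and 25.4% in primed LADs. All 19 constant genes of the fixed list, among them IGHM, the constant gene of IgM, and IGLC1 to IGLC7, were outside LADs of both states. The same was found for the 40 heavy V pseudogenes named with roman numerals, which the rule leaves out. The 6 protein-coding genes inside the lambda locus were also covered at 0%, among them VPREB1 and IGLL5. VPREB1 encodes a part of the surrogate light chain of the pre-B cell receptor. PRAME, a cancer-testis antigen gene, is another of them.

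Among the genes that carry out recombination or act in B cells, the recombinase genes themselves were in LADs of both states. Of 42 such genes on a fixed list, 9 were in naive LADs (21.4%, beside 28.7% of all genes) and 6 in primed LADs (14.3%, beside 25.4%). All 6 were in LADs of both states. For RAG1 the covered share was 85.6% in the naive and 86.1% in the primed list, and its neighbour RAG2 was at 100% in both. LIG4 and XRCC4, which encode partners in the ligation step of end joining, were covered at 100% in both, and at 72.2% and 93.3%. POU2AF1, a coactivator of octamer-binding factors in B cells, and JCHAIN, the gene of the chain that links IgM and IgA units, were at 100% in both. In naive LADs only were 3 genes. EBF1, a regulator of early B cells, had 95.1% of its body in naive LADs and 0% in primed ones. The values were 80.3% and 6.44% for the lymphoid regulator IKZF1, and 100% and 5.04% for MS4A1, the gene of a B cell surface antigen. Over all genes, 5.3% were in naive LADs only. When LADs were joined or short ones removed, EBF1 and IKZF1 stayed in naive LADs only under all 5 settings and MS4A1 under none. Removing LADs shorter than 50 or 100 kb also took XRCC4 out of the naive list, so that it was in primed LADs alone. Joining those under 50 kb apart gave 11 listed genes in naive and 7 in primed, with HMGB2 and LYN added to the naive-only ones. Joining those under 100 kb apart gave 11 and 9, with LYN in naive only and ATM in primed only.

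The T cell receptor segments, built in the same way in another lineage, are the nearest set for comparison. Of 222 placed segments, 66 (29.7%) were in naive and 21 (9.46%) in primed LADs, beside 28.7% and 25.4% of all genes. The naive share over all of them is near that background, but that of no single locus is. It was 62.7% for beta, 100% for gamma and 0% for alpha and delta. All segments in LADs were on chromosome 7, where the beta and gamma loci lie. Of 83 placed beta and 14 gamma segments, 52 and 14 were in naive LADs, and 9 and 12 in primed LADs. The 125 alpha and delta segments of chromosome 14 were in LADs of neither state, like the heavy chain segments of that chromosome. The difference between the 2 kinds of receptor was not tested.

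**Figure D4:**
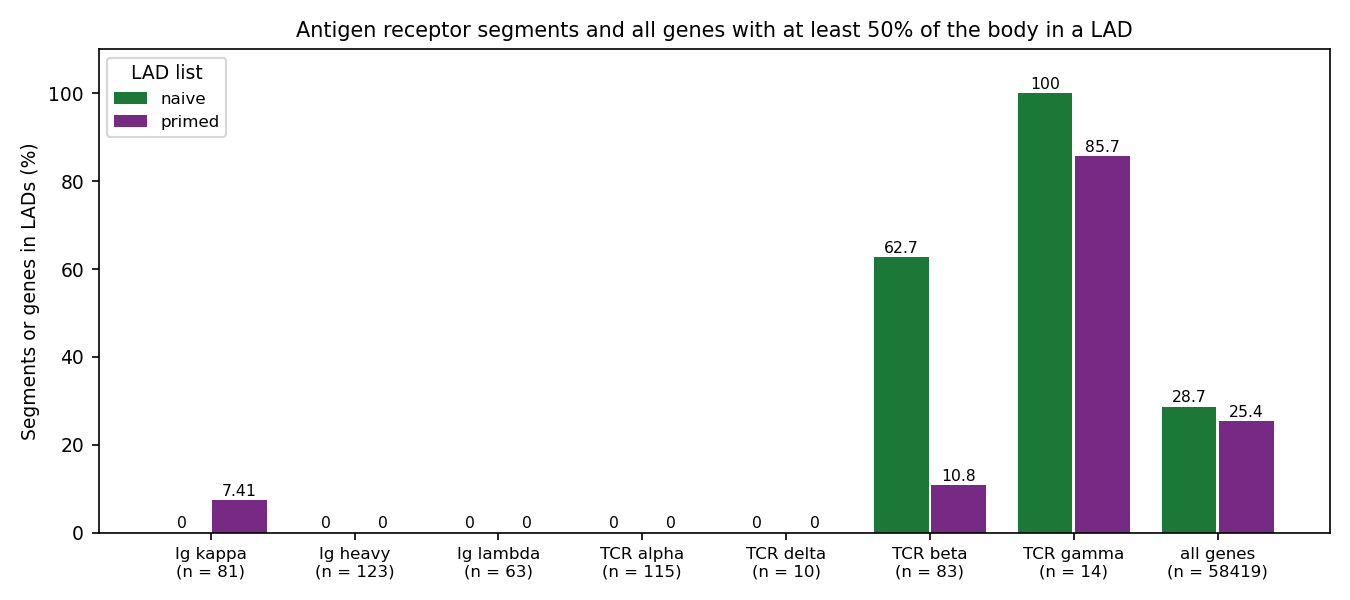
Percent of immunoglobulin segments by locus, of T cell receptor segments by locus and of all RefSeq genes that have at least 50% of their body in a naive (green) or primed (purple) LAD, with the number of genes under each pair of bars. The only immunoglobulin bar above 0 is kappa in primed, at 7.41%, against 28.7% and 25.4% of all genes.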

How the data were processed

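The authors' deposited intervals, 1 LAD list for each state, give chromosome, start and end only. The labels name final lists, while the lists used here are named simple, and what sets them apart is not stated. The processing notes may thus describe other versions of these lists. Per the submitters' processing notes, BWA, SAMtools 1.10, SICER and the build hg38 were used. Step order, thresholds and how libraries were combined are not stated there, and read depth is unknown. Whether the 3 libraries of a group are separate cultures is also not stated.

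Starts were converted to 1-based coordinates. Genes were placed with RefSeq's GRCh38.p14 table, the primary assembly of hg38, and genes on separate scaffolds were left out. Coverage is the percent of a gene body inside LADs. The functions were tested on simulated lists with 200 switched genes. The members and lists were chosen with earlier results of these data known. Named are the first and last segment of each part, segments touched by a LAD, pairs that differ, neighbouring coding genes and listed genes in a LAD. Alternatives changed the coverage rule, joined or removed LADs, and left out pseudogenes, orphons or copies. The promoter table held 0 of the segments, so the search for an octamer was not run. The work used Python 3.11.15 with pandas 2.3.3, numpy 2.4.6, matplotlib 3.10.9 and SciPy 1.17.1.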

Additional observations from a re-analysis of the deposited data

How the results depend on the processing

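The 6 segments in primed LADs, and thus the 6 that differed between the states, all rested on single 10 kb windows. Without LADs under 50 kb or under 100 kb, 0 of these 6 kappa V segments were left. The kappa and heavy loci then had 0 LAD pieces and 0% of their bases in primed LADs. With LADs at most 100 kb apart joined, a setting added after seeing the data, the count was 14 and the kappa locus was covered at 12.4%, since 2 of the windows are exactly 100 kb apart. Without pseudogenes the count was 3. Joining LADs less than 50 or 100 kb apart, requiring 90% or the midpoint, any overlap (8 segments), leaving out duplicated copies (4) and counting windows in place of genes (5) left it within 1.5 times. The naive count was 0 under all 12 alternatives. Leaving out replicates could not be done. No paired analysis was possible because there is 1 list per state, with no values per replicate.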

Other observations

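Primed windows that stand alone, single 10 kb LADs with at least 100 kb to the next LAD on both sides, numbered 336 in the genome, or 0.196 per Mb of DNA outside LADs. The kappa locus held 7 of them (5.36 per Mb), the heavy locus 2 (2.02 per Mb) and the lambda locus 0. The genome and locus rates are not like for like. The DNA outside LADs in the genome also includes gaps too short to hold such a window. The naive list had 367 such windows, with 0 in each locus. Among 3043 tiles of 1 Mb, the kappa tile from 89 to 90 Mb of chromosome 2 held 5 primed ones, and no other tile held 4 or more. This rests on the gap of 100 kb. With at least 50 kb, 3 tiles held 5 or more, the kappa tile among them. With at least 110 kb the kappa locus held 5 and that tile 3, and 5 tiles in all held 3. With at least 150 kb the locus held 3 of 255. Of the 336 primed windows, 110 (32.7%) lay in naive LADs. The 9 in the loci could not be among them, since the naive list has no LAD in any of the loci. The measure was chosen after the windows were seen.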
